A study of Mus musculus with 12 samples.

Results

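The genes described here are the integrin subunits and the cadherins of the mouse lens, 48 protein-coding genes chosen by gene symbol from 55487 gene identifiers in the count table (21936 of them protein-coding). They comprise 18 integrin alpha subunits, 8 integrin beta subunits and 22 cadherins. *Cdh5*, the endothelial cadherin, was left out by the rule and is given only as a marker. Lens RNA of 7-day-old (P7) mice was sequenced in 12 libraries, with 3 libraries per genotype. By the study's methods, male and female lenses were pooled for each library, and nothing in the labels ties pools to litters, so p-values here measure the spread between pools. All mice were kept on the B6J background, and the control group, WT, carried no engineered *Trpm3* allele. *Trpm3*-KO mice came from a line whose *Trpm3* gene, which encodes a calcium-permeable cation channel of the lens epithelium, had been targeted by homologous recombination. Mice called *Trpm3*-I/M were heterozygous and those called *Trpm3*-M/M homozygous for an isoleucine-to-methionine substitution introduced with CRISPR/Cas9, in all cells of the animal. Substitution at the matching residue of human TRPM3 is linked to inherited cataract, and the comparisons ask how lenses with the mutant channel differ from lenses with a targeted or an intact gene.

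Integrins are pairs of one alpha and one beta subunit that span the membrane. Outside the cell they bind laminin, collagen, fibronectin or other matrix proteins, and inside they hold talin, kindlin and through them actin. Cadherins are calcium-dependent adhesion proteins that bind the same or a related cadherin on the next cell, and the classical ones hold beta-, alpha- and p120-catenin on their inner side. In the lens, laminin-binding integrins that contain *Itgb1* attach epithelial and fiber cells to the capsule, E-cadherin (*Cdh1*) marks the epithelium, and N-cadherin (*Cdh2*) joins epithelial cells and fibers.

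The libraries held 56162169 to 82090198 counted reads. The knocked-out gene was checked first: *Trpm3* reached 89.9 to 99.7 CPM (counts scaled to a common library size, with edgeR's TMM scaling) in *Trpm3*-KO libraries and 251 to 285 CPM in WT libraries, with 370.2 to 413 CPM in *Trpm3*-I/M and 469 to 484 CPM in *Trpm3*-M/M libraries. The 19 crystallin genes took 61.0% to 63.9% of the counts in WT and 49.4% to 51.3% in *Trpm3*-M/M libraries, and the 48 adhesion genes took 0.0824% to 0.0924% in WT and 0.155% to 0.164% in libraries of *Trpm3*-M/M. When library size alone was used for scaling, the median log2 fold change of all genes moved by 0.50 in *Trpm3*-M/M lenses and by 0.20 in *Trpm3*-I/M against WT, so fold changes are given relative to the bulk of genes. Lens fiber markers summed to 268029.7 to 298023 CPM in WT and 179829.6 to 187479 CPM in *Trpm3*-M/M libraries, and all 10 of them, and all 7 lens epithelium markers, stood above 1 CPM in every library.

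Of the 48 genes, 15 reached 5 CPM in at least 3 of the 12 libraries and were tested, 9 integrin and 6 cadherin genes. The filter used CPM of the library totals, before TMM scaling, whereas all other CPM values are TMM-scaled. The other 33, 17 integrin and 16 cadherin genes, fell under this filter. The adhesion genes of the P7 lens were concentrated in 7 genes, which held 92.0% to 92.6% of the CPM of all 48 in WT libraries and 84.0% to 84.6% in *Trpm3*-M/M libraries. Per kilobase of exon, the highest level in WT was that of *Itgb5*, at 51.0 ± 3.48 CPM per kb (SD, n = 3), followed by *Itgb1* at 41.3 ± 0.325 (SD, n = 3). *Itgb5* pairs with *Itgav*, whereas *Itgb1* is the common partner of most alpha subunits. *Cdh2* came next at 30.5 ± 0.829 CPM per kb and *Itga6*, a laminin-binding alpha subunit, followed at 18.7 ± 0.595 (SD, n = 3 each). *Cdh1* reached 12.8 ± 1.60, *Itga3* 8.10 ± 0.385 and *Itgav* 5.75 ± 0.643 CPM per kb (SD, n = 3 each). Each of these 7 neighbors in the order differed by more than their spread, since their WT libraries did not overlap. Below them came *Cdh4* (3.47 ± 0.216 CPM per kb) and *Itga2* (2.35 ± 0.154 CPM per kb), and the other tested genes lay under 1 CPM per kb. *Cdh23*, *Itgb8*, *Cdh3* and *Itga9*, between 0.500 and 0.371 CPM per kb on average, were not all separated from each other. The WT libraries of *Cdh23* lay above those of *Itgb8*, whereas those of *Cdh3* overlapped those of *Itgb8* and of *Itga9*.

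**Figure D1:**
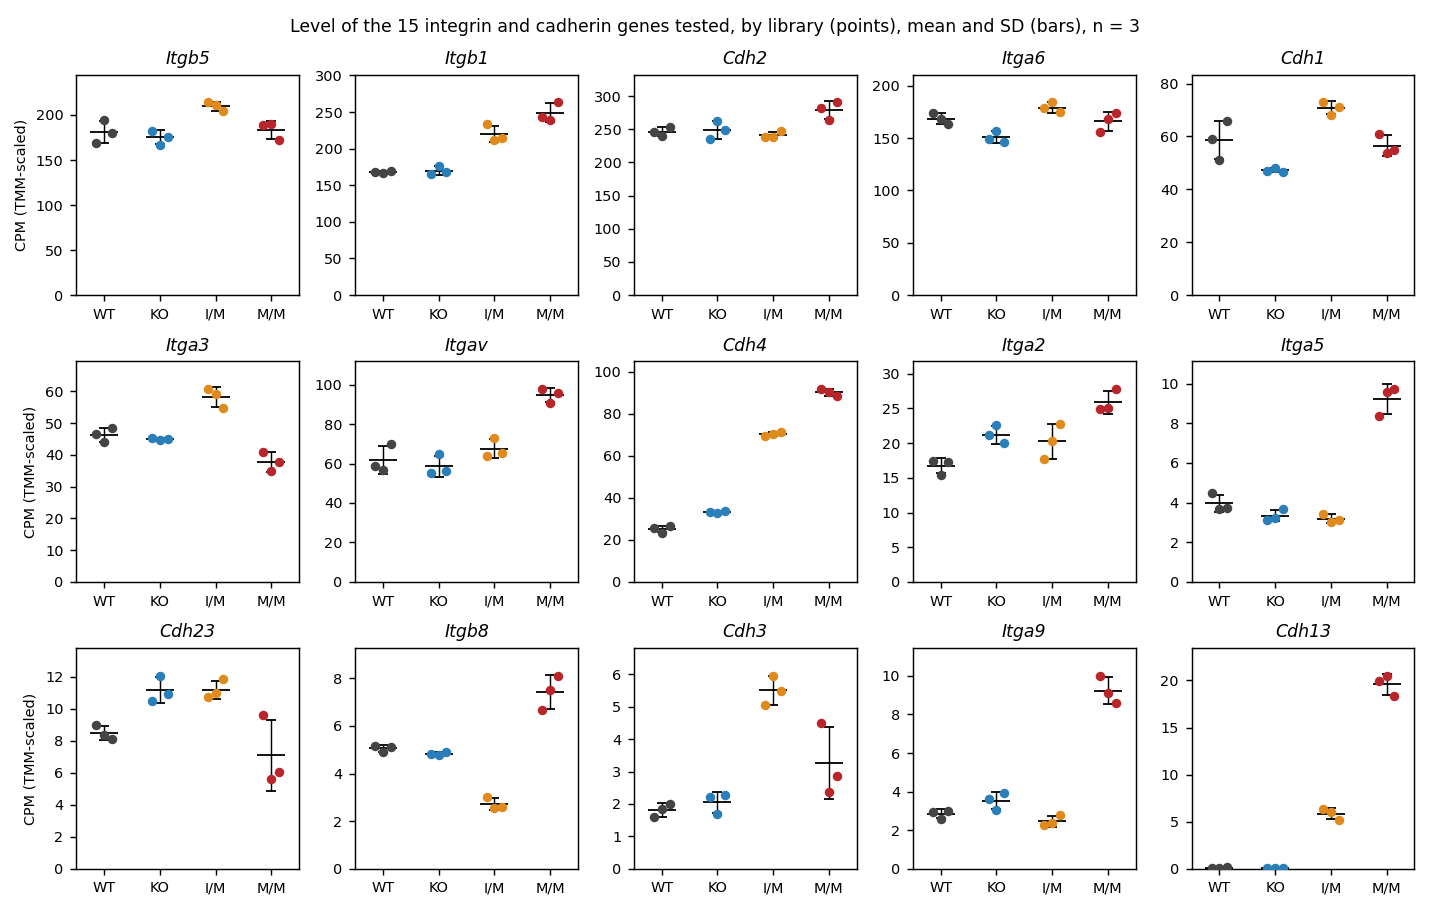
Level of the 15 tested integrin and cadherin genes in each of the 12 libraries, in TMM-scaled CPM on axes that start at 0 and differ between genes. Points are libraries and bars are the mean and SD of 3 libraries. *Cdh4* lay at 23.5 to 26.5 CPM in WT and 88.7 to 91.9 CPM in *Trpm3*-M/M libraries, and *Cdh13* at 0.0840 to 0.178 and 18.3 to 20.5 CPM.

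Each genotype was compared with WT, and the mutant genotypes with each other, in one fit of all 12 libraries, with a gene called at an FDR (Benjamini–Hochberg adjusted p over the 8984 genes tested) of at most 0.05 and a fold change (FC) of at least 2. In *Trpm3*-M/M lenses, *Cdh4*, *Itga5*, *Itga9* and *Cdh13* were called higher than in WT, 4 of 15, beside 6.42% of all genes tested, and 0 of 15 were called lower, beside 2.53%. In *Trpm3*-I/M lenses, *Cdh4*, *Cdh3* and *Cdh13* were called higher, 3 of 15 beside 2.58%, and 0 lower beside 0.746%. In *Trpm3*-KO lenses 0 were called in either direction, beside 0.234% higher and 0.334% lower. Between the mutant genotypes, *Itga5*, *Itgb8*, *Itga9* and *Cdh13* were called higher in *Trpm3*-M/M, 4 of 15 beside 3.67%, and 0 lower beside 1.02%. These counts are a description only. *Itga5*, *Itga9* and *Itgb8* passed the filter only through their *Trpm3*-M/M libraries and *Cdh3* only through its *Trpm3*-I/M libraries, and *Cdh13* had no WT library at 5 CPM, all before TMM scaling, so the filter itself favored a difference in these genes. For *Itgb8* the values before scaling were 4.05 to 4.66 CPM in WT and 8.16 to 10.3 CPM in *Trpm3*-M/M libraries.

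At the FDR alone, 10 of the 15 genes rose and 1 fell in *Trpm3*-M/M lenses, beside 31.4% of all genes in each direction. The heterozygous *Trpm3*-I/M lenses had 8 that rose and 2 that fell, beside 17.3% and 15.3%. In *Trpm3*-KO lenses 2 rose and 1 fell, beside 2.16% and 2.2%, and in *Trpm3*-M/M against *Trpm3*-I/M lenses 9 were higher and 5 lower, beside 25.6% and 25.7%. The median log2 fold change of the 15 genes was 0.56 in *Trpm3*-M/M lenses, 0.27 in *Trpm3*-I/M lenses and −0.04 in *Trpm3*-KO lenses, beside medians of all genes within 0.01 of 0. Libraries of *Trpm3*-M/M and WT did not overlap for 11 of the 15, those of *Trpm3*-I/M and WT for 12 and those of *Trpm3*-KO and WT for 8, beside 65.2%, 44.6% and 23.2% of all genes. The mutant genotypes did not overlap each other for 15 of the 15, beside 60.5%. The 3 comparisons with WT share their control libraries. *Itga5*, *Itga9*, *Itgb8*, *Cdh3* and *Cdh13*, in which the filter favored a difference, enter these counts and medians too. They are likewise a description only.

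**Figure D2:**
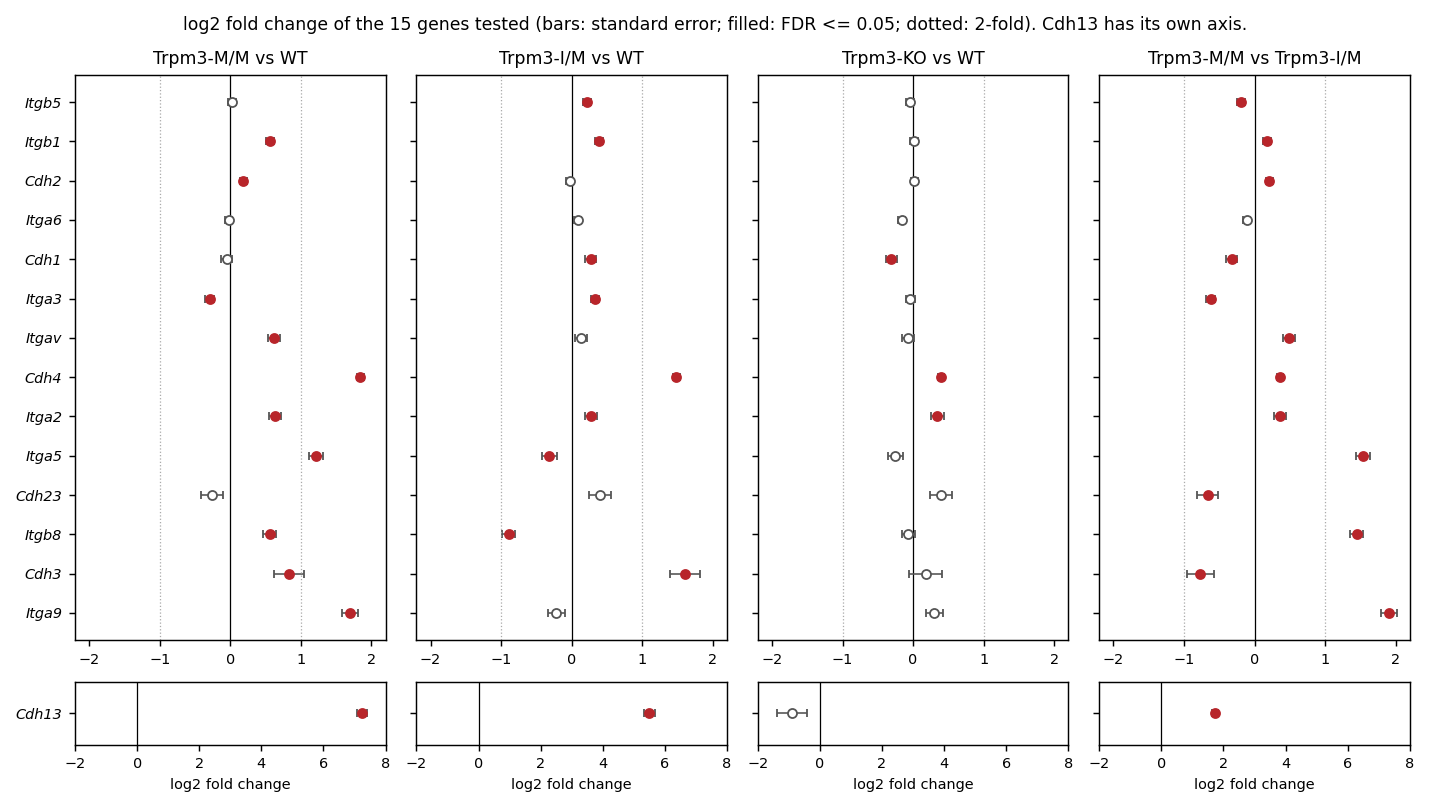
Log2 fold change of the 15 tested genes in each comparison, in order of their WT level per kb, with standard errors. Filled points have an FDR of at most 0.05, dotted lines mark a fold change of 2, and *Cdh13* has an axis of its own. *Itga5* and *Itgb8* lay below 0 in *Trpm3*-I/M (−0.31 and −0.89) and above 0 in *Trpm3*-M/M (1.22 and 0.56).

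Among the type I cadherins, *Cdh4*, encoding R-cadherin, rose in all 3 engineered genotypes, and rose most in the mutants. Positions are on GRCm38 in the GENCODE vM21 annotation. *Cdh4* (ENSMUSG00000000305; chromosome 2, 179442431 to 179899373, forward strand) stood at 25.6, 23.5 and 26.5 CPM in WT and 33, 32.7 and 33.6 CPM in *Trpm3*-KO libraries. It stood at 69.5, 70.5 and 71.4 CPM in *Trpm3*-I/M and 91.9, 90.4 and 88.7 CPM in *Trpm3*-M/M libraries. No 2 genotypes overlapped. The log2 fold change against WT was 1.84 (SE 0.05, edgeR adjusted p = 7.02e-12) in *Trpm3*-M/M, a 3.58-fold rise. It was 1.48 (SE 0.05, edgeR adjusted p = 1.43e-10) in *Trpm3*-I/M and 0.39 (SE 0.05, edgeR adjusted p = 0.000218) in *Trpm3*-KO, the latter under the threshold of 2-fold. Between *Trpm3*-M/M and *Trpm3*-I/M lenses it differed by 0.36 (SE 0.05, edgeR adjusted p = 2.74e-05).

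*Cdh3*, encoding P-cadherin, was highest in *Trpm3*-I/M lenses. *Cdh3* (ENSMUSG00000061048; chromosome 8, 106510891 to 106557297, forward strand) stood at 1.59, 1.85 and 2.00 CPM in WT, 2.21, 1.68 and 2.27 in *Trpm3*-KO, 5.07, 5.95 and 5.49 in *Trpm3*-I/M and 4.50, 2.37 and 2.88 in *Trpm3*-M/M libraries. All *Trpm3*-I/M libraries lay above all others after TMM scaling, and *Trpm3*-M/M replicate 1 stood apart from the other two *Trpm3*-M/M libraries. Before TMM scaling the mutant genotypes overlapped, at 5.12 to 5.97 CPM in *Trpm3*-I/M and 2.96 to 5.50 CPM in *Trpm3*-M/M libraries. The log2 fold change was 1.60 (SE 0.21, edgeR adjusted p = 6.58e-05) in *Trpm3*-I/M and 0.83 (SE 0.21, edgeR adjusted p = 0.00404) in *Trpm3*-M/M against WT, and −0.77 (SE 0.19, edgeR adjusted p = 0.00399) in *Trpm3*-M/M against *Trpm3*-I/M. Without *Trpm3*-M/M replicate 1, the last value passed the 2-fold threshold at −1.05 and the rise against WT was 0.56, and without *Trpm3*-M/M replicate 2 that rise was 1.04, past 2-fold.

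*Cdh1* and *Cdh2*, the main cadherins of the lens, changed by less. *Cdh1*, E-cadherin, stood at 51.1 to 65.7 CPM in WT, 46.6 to 48.1 CPM in *Trpm3*-KO, 68.2 to 73.0 CPM in *Trpm3*-I/M and 53.7 to 60.9 CPM in *Trpm3*-M/M libraries. It rose in *Trpm3*-I/M lenses by a log2 fold change of 0.27 (SE 0.08, edgeR adjusted p = 0.0158) and fell by 0.31 in *Trpm3*-KO lenses (SE 0.08, edgeR adjusted p = 0.0387). The fall passed the threshold in the fit of all libraries but not without any one *Trpm3*-KO library, without WT replicate 1 or 3 or without *Trpm3*-I/M replicate 3 (edgeR adjusted p 0.0531 to 0.136), nor with library size alone (0.142) or a fit of the compared genotypes alone (0.0671), and the rise not without WT replicate 2 or *Trpm3*-I/M replicate 1 (edgeR adjusted p 0.0581 and 0.052). In *Trpm3*-M/M lenses its log2 fold change was −0.05 (edgeR adjusted p = 0.568), and against *Trpm3*-I/M it was −0.32 (edgeR adjusted p = 0.00313), which with library size alone became −0.02 (edgeR adjusted p = 0.874). *Cdh2*, N-cadherin, stood at 239.9 to 253 CPM in WT and 264 to 291 CPM in *Trpm3*-M/M libraries, a log2 fold change of 0.18 (SE 0.05, edgeR adjusted p = 0.00645). It differed by −0.03 (edgeR adjusted p = 0.722) in *Trpm3*-I/M and 0.02 (edgeR adjusted p = 0.899) in *Trpm3*-KO lenses, neither past the threshold.

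A ratio of 2 genes within a library does not depend on the scaling. Per kb, *Cdh2* over *Cdh1* was 2.35, 2.66 and 2.19 in WT libraries and 2.84, 3.09 and 3.03 in *Trpm3*-KO libraries. The ratio was 1.85, 1.99 and 1.97 in *Trpm3*-I/M and 2.63, 2.79 and 3.00 in *Trpm3*-M/M libraries. *Trpm3*-KO libraries were above and *Trpm3*-I/M libraries below all WT libraries, whereas *Trpm3*-M/M libraries overlapped those of WT. *Cdh4* over *Cdh2* lay at 0.109 to 0.117 in WT libraries, 0.139 to 0.156 in *Trpm3*-KO libraries, 0.321 to 0.328 in *Trpm3*-I/M libraries and 0.338 to 0.380 in *Trpm3*-M/M libraries, without overlap between genotypes. With 3 libraries against 3, an exact permutation test of such a ratio cannot go below p = 0.1, so none was run.

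*Cdh13* showed the largest fold change of the 15 genes. It encodes T-cadherin, which is held to the membrane by a lipid anchor, has no catenin-binding tail and is known from vascular cells. *Cdh13* (ENSMUSG00000031841; chromosome 8, 118283733 to 119324921, forward strand) stood at 0.118, 0.0840 and 0.178 CPM in WT libraries (4 to 9 reads) and 0.0561, 0.0362 and 0.113 CPM in *Trpm3*-KO libraries (2 to 6 reads). It stood at 6.34, 6.03 and 5.23 CPM in *Trpm3*-I/M and 19.95, 20.5 and 18.3 CPM in *Trpm3*-M/M libraries. Both mutant genotypes lay above WT and *Trpm3*-KO and did not overlap each other. The log2 fold change against WT was 7.24 (SE 0.17, edgeR adjusted p = 4.99e-12) in *Trpm3*-M/M and 5.50 (SE 0.19, edgeR adjusted p = 3.39e-10) in *Trpm3*-I/M, on a WT level of a few reads a library. Against *Trpm3*-I/M it was 1.74 (SE 0.09, edgeR adjusted p = 1.22e-08) in *Trpm3*-M/M, a 3.33-fold difference. In *Trpm3*-KO lenses it was −0.89 (edgeR adjusted p = 0.368).

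Markers of other cells moved in the same libraries. The 10 vascular endothelial markers, *Cdh5* among them, summed to 6.07 to 8.68 CPM in WT, 6.54 to 7.36 CPM in *Trpm3*-KO, 20.5 to 30.9 CPM in *Trpm3*-I/M and 71.3 to 80.7 CPM in *Trpm3*-M/M libraries. Each of the 10 was higher in every *Trpm3*-I/M and every *Trpm3*-M/M library than in every WT library, and none was at 0 reads throughout WT. *Cdh5* itself stood at 0.0840 to 0.396 CPM in WT, 0.199 to 0.355 CPM in *Trpm3*-KO, 1.69 to 3.63 CPM in *Trpm3*-I/M and 8.13 to 11.9 CPM in *Trpm3*-M/M libraries, and *Pecam1*, another endothelial adhesion gene, at 0.570 to 0.813, 0.729 to 1.18, 1.43 to 2.19 and 5.76 to 7.31 CPM. Their part in the changes of *Cdh13* and the other adhesion genes was not tested. In whole lenses, more cells of a type and more RNA per cell cannot be told apart.

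*Cdh23*, a long cadherin known from the links between sensory hair bundles, varied within *Trpm3*-M/M. It stood at 8.97, 8.34 and 8.11 CPM in WT, 10.5, 12.1 and 10.9 in *Trpm3*-KO, 10.7, 11 and 11.8 in *Trpm3*-I/M and 9.63, 5.60 and 6.06 in *Trpm3*-M/M libraries. Against WT its log2 fold change did not pass the threshold in *Trpm3*-M/M, at −0.26 (edgeR adjusted p = 0.166), in *Trpm3*-I/M, at 0.40 (edgeR adjusted p = 0.0655), or in *Trpm3*-KO, at 0.40 (edgeR adjusted p = 0.199). Between the mutants, *Trpm3*-M/M was lower, with a log2 fold change of −0.66 (SE 0.15, edgeR adjusted p = 0.0026). Without *Trpm3*-M/M replicate 1, the differences from WT passed the threshold, at −0.52 in *Trpm3*-M/M lenses, 0.40 in *Trpm3*-I/M lenses and 0.40 in *Trpm3*-KO lenses, as did that of *Trpm3*-I/M lenses without *Trpm3*-M/M replicate 2, at 0.40. Without a filter on low values all 3 passed (edgeR adjusted p 3.86e-06 to 0.00401), and with the compared genotypes alone those of *Trpm3*-I/M and *Trpm3*-KO did (edgeR adjusted p 0.00277 and 0.0193). The *Trpm3*-I/M value also passed with library size alone (edgeR adjusted p = 0.00423) and with DESeq2 (adjusted p = 0.0334).

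Of the beta subunits, *Itgb1* rose in both mutant genotypes. It stood at 167 to 169.8 CPM in WT, 165 to 177 CPM in *Trpm3*-KO, 212 to 233 CPM in *Trpm3*-I/M and 239 to 264 CPM in *Trpm3*-M/M libraries. Its log2 fold change was 0.39 (SE 0.05, edgeR adjusted p = 6.49e-05) in *Trpm3*-I/M and 0.56 (SE 0.05, edgeR adjusted p = 5.06e-07) in *Trpm3*-M/M lenses, both under 2-fold, and 0.01 (edgeR adjusted p = 0.921) in *Trpm3*-KO lenses. *Trpm3*-M/M exceeded *Trpm3*-I/M by 0.18 (edgeR adjusted p = 0.01), and by 0.14 (edgeR adjusted p = 0.0774) without a filter on low values. *Itgb5* rose in *Trpm3*-I/M lenses by 0.21 (SE 0.06, edgeR adjusted p = 0.0135), a rise not past the threshold without WT replicate 1 (edgeR adjusted p = 0.0655), whereas its log2 fold change was 0.02 (edgeR adjusted p = 0.791) in *Trpm3*-M/M and −0.05 (edgeR adjusted p = 0.728) in *Trpm3*-KO lenses. Per kb, *Itgb1* over *Itgb5* was 0.750 to 0.866 in WT and 1.09 to 1.34 in *Trpm3*-M/M libraries, without overlap.

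*Itgb8* moved in opposite directions in the 2 mutant genotypes. Its protein pairs with that of *Itgav* and is known to release TGF-beta from its latent form. *Itgb8* (ENSMUSG00000025321; chromosome 12, 119158022 to 119238802, reverse strand) stood at 5.15, 4.90 and 5.11 CPM in WT and 4.82, 4.76 and 4.88 CPM in *Trpm3*-KO libraries. It stood at 3.03, 2.55 and 2.58 CPM in *Trpm3*-I/M and 6.68, 7.50 and 8.10 CPM in *Trpm3*-M/M libraries. Every *Trpm3*-I/M library lay below and every *Trpm3*-M/M library above every WT library. The log2 fold change was −0.89 (SE 0.10, edgeR adjusted p = 1.13e-05) in *Trpm3*-I/M and 0.56 (SE 0.09, edgeR adjusted p = 0.00011) in *Trpm3*-M/M against WT. The difference between the mutants was 1.45 (SE 0.09, edgeR adjusted p = 5.22e-08), a 2.73-fold difference.

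The 2 laminin-binding alpha subunits tested at 5 CPM, *Itga6* and *Itga3*, changed by under 2-fold. *Itga7* fell under that filter and is given below. *Itga6* stood at 163 to 174 CPM in WT, 146 to 157 CPM in *Trpm3*-KO, 175 to 185 CPM in *Trpm3*-I/M and 156 to 174 CPM in *Trpm3*-M/M libraries, and passed the threshold in no comparison, with edgeR adjusted p from 0.0812 to 0.735. It passed in *Trpm3*-KO against WT with DESeq2, at −0.16 (adjusted p = 0.0382), and between the mutants with a filter of 1 CPM, at −0.13 (edgeR adjusted p = 0.0488). With library size alone it rose in *Trpm3*-I/M lenses by 0.29 (edgeR adjusted p = 0.00177). *Itga3* stood at 44.0 to 48.3 CPM in WT, 44.7 to 45.3 CPM in *Trpm3*-KO, 54.8 to 60.7 CPM in *Trpm3*-I/M and 34.8 to 41.0 CPM in *Trpm3*-M/M libraries. It rose in *Trpm3*-I/M lenses by 0.33 (SE 0.06, edgeR adjusted p = 0.00111) and, between the mutants, was lower in *Trpm3*-M/M, with a log2 fold change of −0.62 (SE 0.06, edgeR adjusted p = 2.81e-06). Against WT it fell by 0.29 in *Trpm3*-M/M lenses (SE 0.06, edgeR adjusted p = 0.00102), a direction that turned to 0.21 (edgeR adjusted p = 0.0132) with library size as the only scaling. The ratio of *Itga3* to *Itga6* per kb, free of the scaling, was 0.422, 0.412 and 0.468 in WT, 0.536, 0.505 and 0.496 in *Trpm3*-I/M and 0.415, 0.327 and 0.341 in *Trpm3*-M/M libraries. *Trpm3*-I/M libraries lay above all WT libraries, whereas *Trpm3*-M/M replicate 1 overlapped WT.

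Among the subunits that recognize the RGD motif of fibronectin and vitronectin, *Itga5* was called and *Itgav* rose by under 2-fold. *Itga5*, the alpha subunit of the classical fibronectin receptor (ENSMUSG00000000555; chromosome 15, 103344286 to 103366763, reverse strand), stood at 4.46, 3.68 and 3.75 CPM in WT and 3.14, 3.20 and 3.66 CPM in *Trpm3*-KO libraries. It stood at 3.44, 3.00 and 3.13 CPM in *Trpm3*-I/M and 8.38, 9.56 and 9.73 CPM in *Trpm3*-M/M libraries. The log2 fold change was 1.22 (SE 0.10, edgeR adjusted p = 2.11e-07) in *Trpm3*-M/M and −0.31 (SE 0.11, edgeR adjusted p = 0.0378) in *Trpm3*-I/M lenses, and the mutants differed by 1.53 (SE 0.10, edgeR adjusted p = 5.97e-08). In *Trpm3*-KO lenses it was −0.25 (edgeR adjusted p = 0.245), and every *Trpm3*-KO library lay below every WT library only after TMM scaling, at 3.66 against 3.68 CPM where closest. Before it they overlapped, at 2.77 to 3.42 CPM in *Trpm3*-KO and 3.04 to 4.04 CPM in WT. The fall in *Trpm3*-I/M lenses was near the threshold and did not pass it without WT replicate 1 or *Trpm3*-I/M replicate 2 or 3 (edgeR adjusted p 0.091 to 0.153), with library size alone, at −0.12 (edgeR adjusted p = 0.443), or without a filter on low values (edgeR adjusted p = 0.0635). *Itgav*, partner of *Itgb5* and *Itgb8*, stood at 56.8 to 69.7 CPM in WT and 90.8 to 97.8 CPM in *Trpm3*-M/M libraries, a log2 fold change of 0.62 (SE 0.08, edgeR adjusted p = 2.28e-05). The value was 0.13 (edgeR adjusted p = 0.265) in *Trpm3*-I/M lenses, and 0.22 (edgeR adjusted p = 0.0468) without WT replicate 3.

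*Itga9*, whose protein binds tenascin-C and osteopontin, rose in *Trpm3*-M/M lenses. *Itga9* (ENSMUSG00000039115; chromosome 9, 118606690 to 118901003, forward strand) stood at 2.95, 2.61 and 3.01 CPM in WT and 3.61, 3.06 and 3.91 CPM in *Trpm3*-KO libraries. It stood at 2.25, 2.36 and 2.78 CPM in *Trpm3*-I/M and 10.002, 9.11 and 8.60 CPM in *Trpm3*-M/M libraries. The *Trpm3*-M/M libraries lay above all others. The log2 fold change was 1.69 (SE 0.11, edgeR adjusted p = 2.86e-08) against WT and 1.91 (SE 0.11, edgeR adjusted p = 2.54e-08) against *Trpm3*-I/M, whereas it was −0.22 (edgeR adjusted p = 0.199) in *Trpm3*-I/M and 0.30 (edgeR adjusted p = 0.203) in *Trpm3*-KO lenses. *Itga2*, a collagen-binding subunit, stood at 15.5 to 17.4 CPM in WT and 24.9 to 27.8 CPM in *Trpm3*-M/M libraries, a log2 fold change of 0.63 (SE 0.09, edgeR adjusted p = 2.53e-05). It also rose in *Trpm3*-I/M lenses, by 0.27 (edgeR adjusted p = 0.0275), and in *Trpm3*-KO lenses, by 0.34 (edgeR adjusted p = 0.0447). The value in *Trpm3*-KO did not pass without any one WT or *Trpm3*-KO library, nor without *Trpm3*-I/M or *Trpm3*-M/M replicate 2 (edgeR adjusted p 0.0616 to 0.173). That in *Trpm3*-I/M did not pass without WT replicate 2 or *Trpm3*-I/M replicate 2 or 3 (edgeR adjusted p 0.0688 to 0.12), nor in a fit of the compared genotypes alone (edgeR adjusted p = 0.0526).

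Summed per kb, the 12 alpha subunits that pair with *Itgb1* stood at 0.865 to 0.902 times the level of *Itgb1* in WT libraries. The ratio lay between 0.821 and 0.846 in *Trpm3*-KO libraries, between 0.709 and 0.806 in *Trpm3*-I/M libraries and between 0.667 and 0.701 in *Trpm3*-M/M libraries. The 4 genotypes did not overlap in this order.

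The 33 genes under the filter were given by their levels. With a lower filter of 1 CPM in at least 3 libraries, an alternative over 12638 genes, 12 of them could be tested. Those called higher in *Trpm3*-M/M than in WT lenses were *Itga2b*, *Cdh22*, *Cdh6*, *Itgb4*, *Itga7* and *Itga4*, 6 of 12 beside 9.69% of all genes at this filter. All 6 reached 1 CPM before TMM scaling in the 3 *Trpm3*-M/M libraries and in no other, so they had to be higher on that scale. The lowest, *Itga4*, stood there at 1.01 to 1.41 CPM. *Cdh18* was called lower, 1 of 12 beside 3.24%. In *Trpm3*-I/M lenses *Itga4* was called higher, beside 4.0% of all genes, and *Cdh18*, *Cdh11* and *Cdh6* lower, 3 of 12 beside 1.25%. In *Trpm3*-KO lenses 0 of 12 were called, beside 0.364% higher and 0.451% lower. Between the mutants 7 of 12 were called higher in *Trpm3*-M/M, beside 6.5%, and 1 lower, beside 1.49%.

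**Figure D3:**
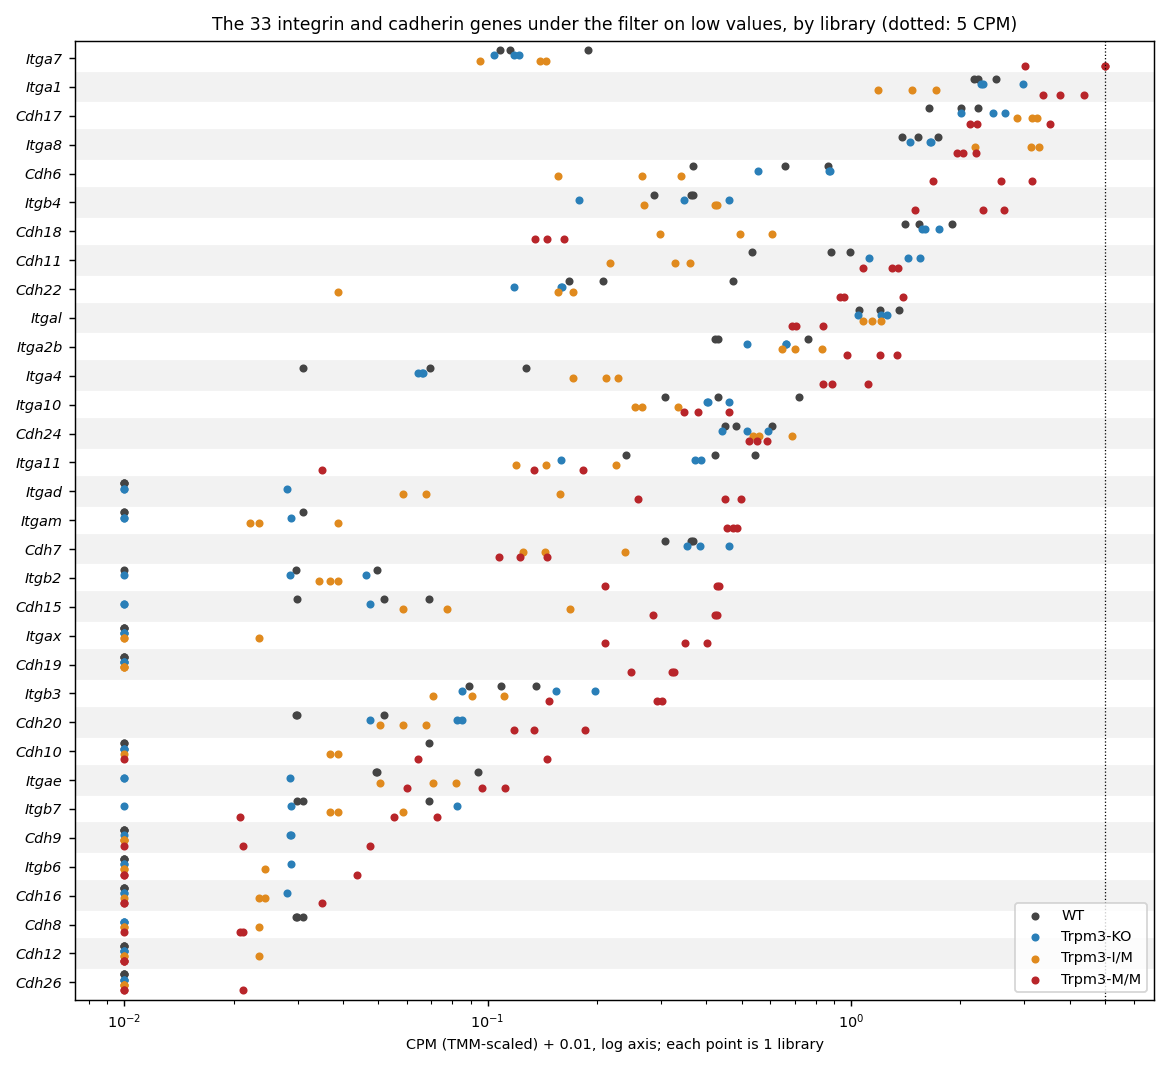
The 33 integrin and cadherin genes under the filter, with each of the 12 libraries as a point on a log axis of TMM-scaled CPM plus 0.01. *Itga7* stood at 0.0983 to 0.178 CPM in WT and 3.00 to 5.0 CPM in *Trpm3*-M/M libraries, and *Cdh18* at 1.40 to 1.89 and 0.125 to 0.152 CPM.

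Of these genes, 3 fell in *Trpm3*-I/M and rose in *Trpm3*-M/M lenses, as *Itgb8* did and as *Itga5* did with a fall near the threshold. *Itga1*, a collagen-binding subunit, stood at 2.5, 2.16 and 2.22 CPM in WT, 2.26, 2.97 and 2.29 CPM in *Trpm3*-KO, 1.17, 1.46 and 1.70 CPM in *Trpm3*-I/M and 3.36, 3.74 and 4.38 CPM in *Trpm3*-M/M libraries. At the lower filter its log2 fold change was −0.67 (edgeR adjusted p = 0.00679) in *Trpm3*-I/M and 0.72 (edgeR adjusted p = 0.000955) in *Trpm3*-M/M lenses. *Cdh6*, a type II cadherin known from kidney epithelium, stood at 0.649, 0.357 and 0.852 CPM in WT, 0.860, 0.868 and 0.545 in *Trpm3*-KO, 0.256, 0.146 and 0.332 in *Trpm3*-I/M and 1.68, 3.14 and 2.58 in *Trpm3*-M/M libraries, and differed from WT by −1.37 (edgeR adjusted p = 0.0205) and 1.96 (edgeR adjusted p = 8.94e-05). *Cdh11*, a type II cadherin of mesenchymal cells, stood at 0.983, 0.525 and 0.872 CPM in WT, 1.42, 1.54 and 1.11 in *Trpm3*-KO, 0.351, 0.207 and 0.317 in *Trpm3*-I/M and 1.34, 1.29 and 1.07 in *Trpm3*-M/M libraries. Its log2 fold changes were −1.46 (edgeR adjusted p = 0.00117) in *Trpm3*-I/M, 0.61 (edgeR adjusted p = 0.0336) in *Trpm3*-M/M and 0.77 (edgeR adjusted p = 0.096) in *Trpm3*-KO lenses, and *Trpm3*-KO libraries overlapped those of *Trpm3*-M/M. The 5 genes were picked out after their values were seen.

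RefSeq promoter windows on GRCm38.p6 were at hand for 31 of the 48 genes. Those of *Itga5*, *Itga1* and *Cdh6* are printed. These genes lay below WT in *Trpm3*-I/M and above WT in *Trpm3*-M/M lenses, and their windows lie outside the gene in both RefSeq and GENCODE. Each is the 250 bases before the RefSeq start, read 5′ to 3′ on the gene's strand. Capitals mark the GC box, GGGCGG on either strand, which was the only one found of 4 motifs searched on both strands. *Itga5* and *Cdh6* each held 2 matches (in *Cdh6* they overlap) and *Itga1* held 0, and 32.7% of all 32851 windows of this length held at least 1. The other motifs were TGANTCA (the AP-1 site, in 6.75% of windows), CATTCC (the TEAD site, in 12.6%) and CACCTG (the E-box read by Snail and Zeb factors, in 17.2%). The windows lie at chr15:103366792-103367041, chr13:115101965-115102214 and chr15:13173676-13173925, all on the reverse strand.
Itga5: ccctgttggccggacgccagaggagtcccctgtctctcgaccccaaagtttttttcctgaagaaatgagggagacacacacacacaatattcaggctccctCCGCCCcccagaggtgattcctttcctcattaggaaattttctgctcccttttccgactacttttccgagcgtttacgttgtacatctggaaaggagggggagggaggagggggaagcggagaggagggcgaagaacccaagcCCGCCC
Itga1: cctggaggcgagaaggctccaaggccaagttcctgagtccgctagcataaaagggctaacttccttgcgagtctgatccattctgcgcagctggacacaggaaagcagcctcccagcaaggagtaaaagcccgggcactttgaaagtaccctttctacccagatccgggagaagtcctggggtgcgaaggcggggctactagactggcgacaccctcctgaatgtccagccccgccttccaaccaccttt
Cdh6: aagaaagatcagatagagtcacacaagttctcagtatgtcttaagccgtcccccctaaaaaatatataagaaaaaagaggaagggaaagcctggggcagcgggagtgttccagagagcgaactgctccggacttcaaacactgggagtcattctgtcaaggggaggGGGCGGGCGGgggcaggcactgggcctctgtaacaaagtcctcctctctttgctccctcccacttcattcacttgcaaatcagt

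*Cdh18* was called lower in both mutant genotypes. A type II cadherin, it stood at 1.40, 1.89 and 1.53 CPM in WT and 1.59, 1.74 and 1.56 CPM in *Trpm3*-KO libraries. It stood at 0.485, 0.595 and 0.288 CPM in *Trpm3*-I/M and 0.125, 0.152 and 0.135 CPM (10 to 14 reads) in *Trpm3*-M/M libraries. At the lower filter its log2 fold change was −1.80 (edgeR adjusted p = 2.72e-05) in *Trpm3*-I/M and −3.54 (edgeR adjusted p = 4.17e-08) in *Trpm3*-M/M lenses. *Cdh7*, another type II cadherin, was too low for that test and stood at 0.297 to 0.357 CPM in WT, 0.115 to 0.229 CPM in *Trpm3*-I/M and 0.0976 to 0.135 CPM in *Trpm3*-M/M libraries. The fibroblast collagen receptor subunit *Itga11* stood at 0.231 to 0.535 CPM in WT and 0.0250 to 0.174 CPM in *Trpm3*-M/M libraries. *Itgal*, the alpha subunit of a leukocyte integrin, was lower in *Trpm3*-M/M lenses, at 0.677 to 0.825 CPM against 1.04 to 1.34 CPM in WT, with a log2 fold change of −0.73 (edgeR adjusted p = 0.00121). Before TMM scaling its libraries overlapped, at 0.863 to 1.01 CPM in *Trpm3*-M/M and 0.943 to 1.11 CPM in WT.

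Several genes near 0 in WT were present in *Trpm3*-M/M lenses. *Itga7*, the laminin-binding subunit of muscle, stood at 0.0983, 0.105 and 0.178 CPM in WT, 0.112, 0.109 and 0.0939 in *Trpm3*-KO, 0.135, 0.0851 and 0.130 in *Trpm3*-I/M and 3.00, 5.0 and 4.98 in *Trpm3*-M/M libraries, a log2 fold change of 5.04 (edgeR adjusted p = 3.95e-09) in *Trpm3*-M/M at the lower filter. *Itgb4*, whose protein pairs with that of *Itga6* in hemidesmosomes, stood at 0.354, 0.357 and 0.278 CPM in WT, 0.168, 0.452 and 0.338 in *Trpm3*-KO, 0.418, 0.413 and 0.259 in *Trpm3*-I/M and 1.49, 2.30 and 2.62 in *Trpm3*-M/M libraries, a difference of 2.67 (edgeR adjusted p = 3.55e-06). *Itga4*, a receptor for fibronectin and VCAM-1, stood at 0.118, 0.0210 and 0.0595 CPM in WT, 0.0561, 0.0543 and 0.0564 in *Trpm3*-KO, 0.162, 0.219 and 0.202 in *Trpm3*-I/M and 0.825, 0.878 and 1.11 in *Trpm3*-M/M libraries, and differed from WT by 1.51 (edgeR adjusted p = 0.0157) and 3.74 (edgeR adjusted p = 3.15e-07). *Cdh22*, a type II cadherin, stood at 0.157, 0.462 and 0.198 CPM in WT, 0.150, 0.109 and 0.150 in *Trpm3*-KO, 0.162, 0.146 and 0.0288 in *Trpm3*-I/M and 0.925, 1.38 and 0.948 in *Trpm3*-M/M libraries, a difference of 1.98 (edgeR adjusted p = 0.000353) in *Trpm3*-M/M. The muscle cadherin *Cdh15* stood at 0.0198 to 0.0590 CPM in WT and 0.275 to 0.418 CPM in *Trpm3*-M/M libraries.

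The leukocyte integrin genes *Itgam*, *Itgax*, *Itgad* and *Itgb2* held 0 to 1, 0, 0 and 0 to 2 reads a library in WT. In *Trpm3*-I/M libraries *Itgam* held 1 to 2, *Itgax* 0 to 1, *Itgad* 4 to 11 and *Itgb2* 2 reads. In *Trpm3*-M/M libraries *Itgam* held 38 to 41, *Itgax* 16 to 36, *Itgad* 20 to 45 and *Itgb2* 16 to 39 reads. The 3 alpha subunits are related in sequence and lie side by side, so that the division of reads among them is uncertain. Against a floor of 3 reads per WT library, which covers counting error only, *Itgax* was at least 5.12-fold and *Itgad* at least 6.49-fold higher in *Trpm3*-M/M. *Cdh19*, a cadherin of neural crest and Schwann cells, was at 0 reads in all 9 other libraries and held 22 to 28 reads in *Trpm3*-M/M libraries, at least 4.78-fold above the floor of WT. The 12 leukocyte markers summed to 0.753 to 1.02 CPM in WT, 0.673 to 0.789 CPM in *Trpm3*-KO, 1.53 to 1.63 CPM in *Trpm3*-I/M and 12.3 to 23.4 CPM in *Trpm3*-M/M libraries. All 12 were higher in every *Trpm3*-M/M than in every WT library, *Ptprc* was at 0 reads throughout WT, and *C1qa* stood at 1.28 to 2.58 CPM in *Trpm3*-M/M libraries. The 5 Schwann cell and neural crest glia markers summed to 0.951 to 1.12 CPM in WT, 0.953 to 1.32 CPM in *Trpm3*-KO, 0.957 to 1.15 CPM in *Trpm3*-I/M and 6.74 to 7.70 CPM in *Trpm3*-M/M libraries, and all 5 were higher in every *Trpm3*-M/M than in every WT library. Libraries of *Trpm3*-M/M and WT did not overlap, in either direction, for 65.2% of all genes tested at 5 CPM. None of these leukocyte or glia markers reached that filter. Their part in the levels of these integrin genes and *Cdh19* was not tested.

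**Figure D4:**
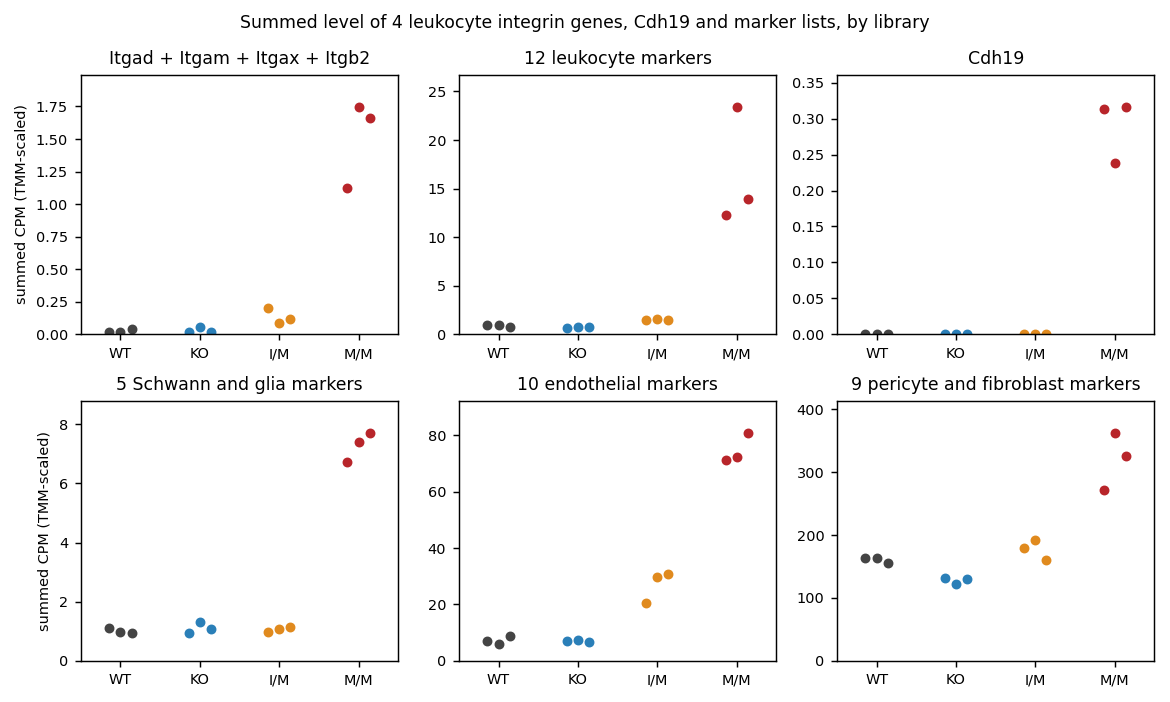
Summed TMM-scaled CPM of 4 leukocyte integrin genes, of *Cdh19* and of 4 marker lists in each of the 12 libraries, on linear axes from 0. The 12 leukocyte markers lay at 12.3 to 23.4 CPM in *Trpm3*-M/M libraries and at 0.753 to 1.02 CPM in WT libraries.

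The 9 pericyte and fibroblast markers summed to 155 to 164 CPM in WT, 122 to 131 CPM in *Trpm3*-KO, 160.0 to 192 CPM in *Trpm3*-I/M and 271 to 362 CPM in *Trpm3*-M/M libraries. Of them, 7 were higher in every *Trpm3*-M/M than in every WT library, *Lum* was at 0 reads throughout WT, and *Pdgfrb* stood at 9.53 to 13.8 CPM in WT and 15.7 to 18.8 CPM in *Trpm3*-M/M. The list was not uniform, since of its 6 tested markers 4 were called higher and 1 lower, beside 6.42% and 2.53% of all genes. Beside such counts of markers above WT, *Trpm3*-M/M and WT libraries did not overlap, in either direction, for 65.2% of all genes tested. That share was not computed for genes under the filter of 5 CPM, where most of the markers named next lay. Neural retina markers (7 of 8 higher in every *Trpm3*-M/M than in every WT library) summed to 0.714 to 0.885 CPM in WT and 1.91 to 3.94 CPM in *Trpm3*-M/M, and surface epithelium markers (*Krt5* and others, 2 of 6 higher, *Krt14* and *Krt12* at 0 reads in WT) to 0.315 to 0.396 and 2.38 to 6.78 CPM. Markers of ciliary non-pigmented epithelium (*Opcml* and others, 3 of 6 higher, *Wfdc1* at 0 reads in WT) summed to 0.904 to 1.13 and 3.81 to 4.24 CPM, and pigmented cell markers (*Tyr* and others, 1 of 7 higher) to 5.99 to 6.63 and 3.01 to 3.58 CPM. Platelet markers (2 of 7 higher, *Pf4*, *Gp9*, *Gp1bb* and *Treml1* at 0 reads in WT) summed to 1.03 to 1.18 and 1.20 to 1.29 CPM, and red blood cell markers (*Hbb-bs* and others, 2 of 5 higher) to 1.22 to 11.9 and 12.4 to 15 CPM. Platelets carry the integrin of *Itga2b* and *Itgb3*. *Itga2b* stood at 0.413, 0.420 and 0.753 CPM in WT, 0.654, 0.651 and 0.507 in *Trpm3*-KO, 0.822, 0.693 and 0.634 in *Trpm3*-I/M and 0.963, 1.19 and 1.33 in *Trpm3*-M/M libraries, and *Itgb3* at 0.0786 to 0.126 CPM in WT and 0.138 to 0.293 CPM in *Trpm3*-M/M libraries. Lens epithelium markers, the crystallin gene *Cryab* among them, summed to 22108 to 26828 CPM in WT and 19917 to 22041 CPM in *Trpm3*-M/M. Such a sum is weighted to its most abundant genes and is no measure of the amount of epithelium. *Foxe3*, a transcription factor of the epithelium, stood at 76.7 to 105 CPM in WT and 17.9 to 21.2 CPM in *Trpm3*-M/M. Of these 7 markers, 5 fell and 0 rose at the FDR alone, beside 31.4% of all genes in each direction (median log2 fold change −0.62). The part of these cells in the adhesion genes that rose in *Trpm3*-M/M lenses, *Itga5*, *Itga9*, *Itgb8*, *Itgav* and *Itga7* among them, was not tested.

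The remaining genes stayed low. *Cdh17*, a cadherin of the intestine, reached 3.53 CPM at most and rose in *Trpm3*-I/M lenses by 0.65 (edgeR adjusted p = 0.0205) at the lower filter. *Itga8*, which binds nephronectin, reached 3.28 CPM and rose by 0.90 (edgeR adjusted p = 0.000682) in *Trpm3*-I/M and 0.40 (edgeR adjusted p = 0.0427) in *Trpm3*-M/M lenses. *Itga10* and *Cdh24* reached 0.708 and 0.678 CPM at most. *Itgae*, *Itgb7*, *Cdh20* and *Cdh10* held at most 9, 5, 14 and 12 reads in any library. *Itgb6*, *Cdh8*, *Cdh9*, *Cdh12*, *Cdh16* and *Cdh26* never held more than 3 reads in a library, so that no difference between genotypes was detectable for them at this depth.

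The partners of these genes were measured from lists of known proteins. Of 31 integrin-actin adhesion partners, 24 were tested, and in *Trpm3*-M/M lenses 18 rose and 1 fell at the FDR alone, with 3 called higher and 1 lower, beside 31.4% of all genes in each direction and 6.42% and 2.53% called (median log2 fold change 0.37). *Tgfb1i1*, encoding the paxillin relative Hic-5, rose by 4.45 (SE 0.19, edgeR adjusted p = 4.78e-10) and *Parvb*, encoding beta-parvin, by 2.16 (SE 0.07, edgeR adjusted p = 1.88e-11). *Vcl*, vinculin, rose by 1.52 (SE 0.10, edgeR adjusted p = 3.03e-08), from 6.41 ± 0.689 to 18.4 ± 2.5 CPM (SD, n = 3). *Lims1*, encoding the PINCH adaptor of integrin-linked kinase, fell by 1.32 (SE 0.08, edgeR adjusted p = 6.25e-09), from 93.1 ± 5.89 to 37.2 ± 3.29 CPM (SD, n = 3). Of the 24, 10 rose and 2 fell in *Trpm3*-I/M lenses, beside 17.3% and 15.3% of all genes, and in *Trpm3*-KO lenses 1 rose and 0 fell, beside 2.16% and 2.2%. A gene with no WT library at 5 CPM was tested only if other genotypes reached that level. The counts of this list are therefore a description only.

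Of 20 cadherin junction partners, 18 were tested, and in *Trpm3*-M/M lenses 7 rose and 7 fell at the FDR alone, with 2 called higher, beside 31.4% of all genes in each direction and 6.42% called higher, so that the list lay near the share of all genes. *Jup*, plakoglobin, which takes the place of beta-catenin at junctions, stood at 3.15 ± 0.368 CPM in WT and 18.5 ± 1.04 CPM in *Trpm3*-M/M libraries (SD, n = 3). It rose by 2.56 (SE 0.09, edgeR adjusted p = 1.03e-10) in *Trpm3*-M/M lenses and in *Trpm3*-I/M lenses by 1.07 (SE 0.10, edgeR adjusted p = 2.77e-06). *Shroom3*, an organizer of apical actomyosin, rose by 1.08 (SE 0.11, edgeR adjusted p = 1.65e-06) in *Trpm3*-M/M and by 1.26 (SE 0.11, edgeR adjusted p = 1.2e-05) in *Trpm3*-KO lenses, and stood at 7.92 ± 0.220 CPM in *Trpm3*-KO against 3.31 ± 0.363 CPM in WT (SD, n = 3). Of the 18, 2 rose and 3 fell in *Trpm3*-I/M lenses, beside 17.3% and 15.3%, and in *Trpm3*-KO lenses 1 rose and 1 fell, beside 2.16% and 2.2%. *Jup* and *Shroom3* lay under 5 CPM in WT, so the filter itself favored a difference in them. The counts of this list are a description only.

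Of 38 integrin ligands, 37 were in the table and 26 were tested. In *Trpm3*-M/M lenses 18 rose and 5 fell at the FDR alone, with 14 called higher and 0 lower, beside 31.4% of all genes in each direction and 6.42% and 2.53% called (median log2 fold change 1.54). In *Trpm3*-I/M lenses 8 rose and 5 fell, beside 17.3% and 15.3%, and 6 were called higher, beside 2.58%. In *Trpm3*-KO lenses 0 of the 26 passed the FDR in either direction, beside 2.16% and 2.2%. *Tnc*, tenascin-C, stood at 0.0393 to 0.105 CPM in WT, 0.807 to 2.79 CPM in *Trpm3*-I/M and 76.4 to 119 CPM in *Trpm3*-M/M libraries. *Spp1*, osteopontin, stood at 0 to 0.0420 CPM in WT and 13.5 to 30.4 CPM in *Trpm3*-M/M libraries. *Postn*, periostin, stood at 0.126 to 0.157, 2.27 to 3.14 and 52.2 to 80.9 CPM in WT, *Trpm3*-I/M and *Trpm3*-M/M, and *Col1a1*, a chain of type I collagen, at 0.119 to 0.138, 0.231 to 0.404 and 35.0 to 80.2 CPM. Each was called higher in *Trpm3*-M/M than in WT and than in *Trpm3*-I/M lenses (edgeR adjusted p at most 1.26e-08). *Tnc*, *Postn* and *Col1a1* lay under 5 CPM in every WT and *Trpm3*-I/M library, and *Spp1* in every WT library. The filter itself therefore favored a difference in such ligands, and the counts of this list are a description only. *Tnc* and *Spp1* encode ligands of the *Itga9* product.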

How the data were processed

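Per the study's methods and the labels, reads from poly(A)-selected RNA were aligned and counted by the authors with DRAGEN 3.9.3-8 against Ensembl release 101 (mm10). The deposited values are estimated counts per gene, one column per library, neither normalized nor pooled. Of these counts 88.4% were whole, and all were rounded here. The table holds 55774 entries, and 168 identifiers listed more than once with equal values were used once. A second table deposited by the authors holds the same counts for 9470 genes with CPM, fold changes and p-values of their comparisons, none of which was used here beyond the check that 0 counts differed.

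Members were matched by identifier to GENCODE vM21 (GRCm38) for position and exon length (48 of 48). CPM used edgeR 4.0.16 TMM factors under R 4.3.3. The filter of 5 CPM, before TMM scaling, in at least 3 libraries and the thresholds (FDR of at most 0.05, FC of at least 2) follow the study's methods, and edgeR's quasi-likelihood test was run on one fit of 12 libraries with genotype as the only factor. The standard error (SE) of a log2 fold change was derived from its F statistic. The procedure was tested on simulated data. Tests had been chosen for whole counts. Alternatives were library size only, DESeq2 size factors, scaling without crystallins, DESeq2 1.42.0, no fold threshold, a filter of 1 CPM or none, fits of the compared genotypes alone, a replicate block and each library left out. Leaving out a library while testing the same genes was added after seeing the data. Figures used Python 3.11.15 and matplotlib 3.10.9.

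The members, gene lists and tests were chosen with earlier results of these data known. All members are named, those called at either filter with every library, and from each partner list the 4 genes called in *Trpm3*-M/M with the largest change. Gene groups picked later are marked so. From the retina and Schwann cell marker lists, 1 gene each is not reported here and was left out of the sums. The library kit is not described as stranded, so reads of a gene and of an overlapping antisense gene cannot be told apart.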

Additional observations from a re-analysis of the deposited data

How the results depend on the processing

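The 15 tested genes and 4 comparisons gave 60 fold changes, 38 of them past the FDR, of which 28 kept direction and side of the threshold under every alternative that gave a value. The number of adhesion genes called higher in *Trpm3*-M/M than in WT, 4 in the fit reported, was 9 with library size only, 10 with a filter of 1 CPM, 17 without a filter and 10 without the fold threshold. The number called lower, 0, became 1, 3 and 1 with a filter of 1 CPM, without a filter and without the fold threshold. For *Trpm3*-I/M against WT, 3 called higher became 5 without a filter and 8 without the fold threshold, and 0 called lower became 3 with a filter of 1 CPM, 5 without a filter and 2 without the fold threshold. For *Trpm3*-KO, 0 became 2 higher and 1 lower without the fold threshold. For *Trpm3*-M/M against *Trpm3*-I/M, 4 called higher became 11, 18 and 9, and 0 called lower became 1, 1 and 5, with a filter of 1 CPM, without a filter and without the fold threshold. A lower filter tests more genes. Without the fold threshold the same genes were counted at the FDR alone.

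Leaving out one library gave 2 to 4 genes called higher in *Trpm3*-M/M than in WT and 1 to 4 when compared with *Trpm3*-I/M, with 2 without *Trpm3*-M/M replicate 1 or 3 and, against *Trpm3*-I/M, 1 without any one *Trpm3*-M/M library. The remaining 2 *Trpm3*-M/M libraries cannot carry *Itga5*, *Itga9* and *Itgb8* through a filter of 3 libraries at 5 CPM before TMM scaling. With the same genes tested, leaving out one library gave 4 to 5 and 4 to 4 called higher. Genes called lower in *Trpm3*-M/M against *Trpm3*-I/M were 0 to 1 in either case, the 1 being *Cdh3* without *Trpm3*-M/M replicate 1. All other counts of called genes stayed at 3 to 3 or 0 to 0.

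With library size only, the log2 fold changes of *Itga6* (0.49), *Cdh1* (0.45), *Itga3* (0.21) and *Cdh23* (0.24) in *Trpm3*-M/M against WT, of *Cdh2* in *Trpm3*-I/M (0.17), of *Itgb5* (0.0028) and *Itga3* (0.0055) in *Trpm3*-KO, and of *Itgb5* (0.12) and *Itga6* (0.20) in *Trpm3*-M/M against *Trpm3*-I/M turned from negative to positive, beside the shift of the median of all genes given above. *Itgb5* in *Trpm3*-M/M against WT was −0.00455 with a filter of 1 CPM. Leaving out one library turned the sign of small values that did not pass the FDR, which ranged as follows: *Itgb5* in *Trpm3*-M/M against WT (−0.0305 to 0.0849; turned to −0.0300, −0.00919, −0.000858 with the same genes tested), *Itga6* in *Trpm3*-M/M against WT (−0.0466 to 0.0466; turned to 0.0218 with the same genes tested), *Cdh1* in *Trpm3*-M/M against WT (−0.146 to 0.0331; turned to 0.0333 with the same genes tested), *Itgb5* in *Trpm3*-KO against WT (−0.0943 to 0.00425; turned to 0.00422 with the same genes tested), *Itgb1* in *Trpm3*-KO against WT (−0.0148 to 0.0353; turned to −0.0150 with the same genes tested), *Cdh2* in *Trpm3*-KO against WT (−0.0207 to 0.0559; turned to −0.0210, −0.00146 with the same genes tested), *Itgav* in *Trpm3*-KO against WT (−0.151 to 0.0205; turned to 0.0204 with the same genes tested).

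Same-numbered libraries showed little shared deviation (18 pairs, r from −0.26 to 0.15, 2 over 0.1, and 2 of 12 libraries best matched by their own number). With 3 libraries per genotype this check cannot show that they have nothing in common. The labels state no pairing, and the replicate number was not a factor in the fit reported. With the replicate block, the counts of called genes were 4 and 0, 3 and 0, 0 and 0, and 4 and 0 in the order above, and of the 38 fold changes 2 lost the FDR, *Itga2* in *Trpm3*-KO (edgeR adjusted p = 0.0507) and *Itga5* in *Trpm3*-I/M (edgeR adjusted p = 0.0578). Depth limits the 33 genes under the filter, 24 of which held fewer than 100 reads in every library.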

Other observations

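Some of these genes are neighbors on a chromosome. *Cdh3* and *Cdh1* lie 46053 bp apart on chromosome 8. Against WT, *Cdh3* differed by 0.83 and *Cdh1* by −0.05 on the log2 scale in *Trpm3*-M/M lenses, and by 1.60 and 0.27 in *Trpm3*-I/M lenses. *Itga2* and *Itga1*, both encoding collagen-binding subunits, lie 20995 bp apart on chromosome 13. In *Trpm3*-I/M lenses *Itga2* differed by 0.27 in the fit at 5 CPM and *Itga1* by −0.67 in the fit at 1 CPM, and in *Trpm3*-M/M lenses by 0.63 and 0.72. On chromosome 7, *Itgam*, *Itgax* and *Itgad* lie within 11055 bp of the next, and each held more reads in every *Trpm3*-M/M than in every WT library. *Itgal*, 727501 bp from *Itgam*, was lower in every *Trpm3*-M/M than in every WT library only after TMM scaling. It held 60 to 66 reads in *Trpm3*-M/M and 53 to 64 reads in WT libraries.

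On chromosome 15 lie 5 type II cadherins. *Cdh18* fell and *Cdh6* rose in *Trpm3*-M/M lenses at the lower filter, by log2 fold changes of −3.54 and 1.96, and both fell in *Trpm3*-I/M lenses, by −1.80 and −1.37. *Cdh9*, *Cdh10* and *Cdh12* held at most 3, 12 and 1 reads in any library. Summed over all 12 type II cadherins, the level was 4.10 to 4.38 CPM in WT, 4.34 to 5.17 CPM in *Trpm3*-KO, 1.82 to 2.10 CPM in *Trpm3*-I/M and 5.21 to 7.02 CPM in *Trpm3*-M/M libraries. The 5 type I cadherins summed to 316 to 347 CPM in WT, 318 to 345 CPM in *Trpm3*-KO, 384 to 396 CPM in *Trpm3*-I/M and 411 to 439.8 CPM in *Trpm3*-M/M libraries. These pairs and sums were chosen after the values were seen.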
